A study of Mus musculus with 16 samples.

Results

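Ligands and receptors of the BAFF and APRIL system were followed through RNA-seq of peritoneal B1b cells and of aortas from atherosclerosis-prone mice. The 4 genes, Tnfrsf13c (BAFF receptor), Tnfrsf13b (TACI), Tnfsf13b (BAFF) and Tnfsf13 (APRIL), were taken by symbol from 24562 entries, keeping for each gene the transcript row with the highest total count. They were chosen by name, with earlier results of these data known.

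All mice were ApoE-/-, which lack apolipoprotein E and develop atherosclerosis. Libraries labelled cre came from mice with CD40 deficiency in B cells, and libraries labelled wt came from wild-type controls on the same ApoE-/- background. The groups were cre B1b cells (n = 3), wt B1b cells (n = 3), cre aortas (n = 5) and wt aortas (n = 5). B1b cells, an innate-like B cell subset, had been sorted from peritoneal lavage as B cells with low B220, high IgM and low CD5, and aortas were lysed whole. The sources used here give neither the promoter that drives Cre, nor the altered part of Cd40, nor the age of the mice. They also do not say whether libraries of a group came from separate animals, so the p-values measure the spread between these libraries.

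BAFF and APRIL are related cytokines of the TNF family, made largely by myeloid and stromal cells. BAFF binds the BAFF receptor, TACI and BCMA, and APRIL binds TACI and BCMA but not the BAFF receptor. The BAFF receptor releases the kinase NIK from TRAF3-dependent degradation and so drives non-canonical NF-kB and survival of mature follicular B cells, a pathway that CD40 also uses; peritoneal B1 cells depend less on it.

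Depth after 1 row per gene was 6815829 to 9911226 counts in B1b libraries and 1645926 to 7300894 in aortas, of which 2 were under 2000000. Levels are CPM, each count relative to its library total, scaled by the TMM factors of edgeR over all 16 libraries. The summed level of 9 B cell markers was 7816 to 8194 CPM in cre B1b cells and 7848 to 8347 CPM in wt B1b cells, against 193 to 342 CPM in cre aortas and 228 to 295 CPM in wt aortas. The summed level of 6 smooth muscle markers was 8663 to 22981 CPM in cre aortas and 12688 to 17950 CPM in wt aortas, against at most 17.3 CPM in any B1b library, so both tissue labels stood with these sums. Ebf1, at 86.9 to 109.9 CPM in cre and 89.4 to 151 CPM in wt aortas, and Cd72 made up most of the B cell sum in aortas. Cd72 went against its list, with 41.7 to 108 CPM in cre and 51.9 to 135 CPM in wt aortas, against 12.8 to 23.7 CPM in cre and 26.6 to 53.8 CPM in wt B1b cells. Cd40 itself averaged 32.7 ± 5.13 CPM in cre B1b cells and 36.4 ± 2.22 CPM in wt B1b cells (SD, n = 3 each). Its log2 fold change there was -0.16, with an adjusted p of 0.679 in edgeR's quasi-likelihood test. In aortas Cd40 averaged 5.60 ± 2.54 CPM in cre and 7.32 ± 2.84 CPM in wt mice (SD, n = 5 each; log2 fold change -0.35, edgeR adjusted p 0.711). Counts over the whole gene do not show an altered exon, so this does not check the labels.

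The receptor and ligand genes stand at different places in the genome, and the bases before their starts were searched for short motifs. On GRCm38.p6, the build called mm10, Tnfrsf13c lies on chromosome 15 from 82221742 to 82224380 on the minus strand, and Tnfrsf13b on chromosome 11 from 61126283 to 61153170 on the plus strand. Tnfsf13b lies on chromosome 8 from 10006229 to 10036000 on the plus strand, and Tnfsf13 on chromosome 11 from 69682577 to 69685554 on the minus strand. The 250 bases before a RefSeq start are printed for both receptors, whose mRNAs were the abundant members in B1b cells, and for BAFF, whose mRNA was at 0 to 8 counts there. Capitals mark motif matches. For Tnfrsf13b and Tnfsf13b the RefSeq gene span opens at a start upstream of the one used.
Tnfrsf13c, chr15:82224381-82224630, minus strand: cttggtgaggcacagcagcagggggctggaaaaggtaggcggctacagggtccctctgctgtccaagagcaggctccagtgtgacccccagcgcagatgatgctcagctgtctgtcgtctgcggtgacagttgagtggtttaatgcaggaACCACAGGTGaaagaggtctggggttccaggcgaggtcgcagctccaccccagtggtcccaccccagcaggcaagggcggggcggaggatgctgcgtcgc
Tnfrsf13b, chr11:61126505-61126754, plus strand: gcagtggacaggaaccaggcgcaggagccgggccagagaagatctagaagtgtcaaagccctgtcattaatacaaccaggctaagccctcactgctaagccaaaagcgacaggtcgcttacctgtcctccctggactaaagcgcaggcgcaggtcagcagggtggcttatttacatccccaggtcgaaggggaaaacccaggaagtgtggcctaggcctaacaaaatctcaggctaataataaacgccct
Tnfsf13b, chr8:10006217-10006466, plus strand: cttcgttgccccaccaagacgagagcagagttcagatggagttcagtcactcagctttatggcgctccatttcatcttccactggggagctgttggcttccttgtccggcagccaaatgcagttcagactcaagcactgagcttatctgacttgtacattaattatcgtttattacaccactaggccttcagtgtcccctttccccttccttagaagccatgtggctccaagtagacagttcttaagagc

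Both strands were searched for cores of motifs for EBF (TCCCNNGGG), octamer factors (ATGCAAAT), E2A E-boxes (CAGGTG), RUNX (TGTGGT), PU.1 (GAGGAA), NF-kB (GGGANNTTC, or its variant GGGGNNTTC), interferon response (AAANNGAAA), AP-1 (TGANTCA) and the core promoter box TATAAA. The BAFF receptor window held an E-box CAGGTG 96 to 91 bases before the start, overlapping a RUNX match (ACCACA, its reverse complement) 100 to 95 bases before it. Among 32851 RefSeq windows of the same length, 17.2% held CAGGTG and 14.0% held the RUNX letters. The TACI window and the BAFF window printed above held none of the motifs. A second BAFF start had interferon response matches, AAACTGAAA at 21 to 13 and AAAGTGAAA at 15 to 7 bases before it, that overlap each other, a motif present in 9.37% of windows, and an AP-1 match (TGAGTCA) 127 to 121 bases before it. The APRIL window held AP-1 letters 133 to 127 bases and RUNX letters 120 to 115 bases before the start, and 6.75% of all windows held the AP-1 motif. The octamer stood in 1.60% of windows, EBF in 5.60%, PU.1 in 23.3%, TATAAA in 12.4% and the NF-kB forms in 3.23% and 3.35%, and no member window held any of these. These matches are letters, not measured binding, and a missing match says nothing of a factor.

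The receptor that binds only BAFF was the most abundant member in B1b cells. Tnfrsf13c had 129, 132 and 163 CPM in the 3 cre B1b libraries, against 195, 145 and 144 CPM in the 3 wt B1b libraries. The groups overlapped, since the highest cre library stood above both lower wt libraries. The means were 141 ± 18.7 CPM in cre and 161 ± 29.1 CPM in wt cells (SD, n = 3 each). The log2 fold change was -0.21 (SE 0.13, 95% interval -0.48 to 0.07, edgeR adjusted p 0.531). One library carried most of that difference, as the log2 fold change was -0.03 without wt replicate 1.

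Tnfrsf13b encodes TACI, the receptor shared by BAFF and APRIL, which restrains B cell numbers in mice and is needed for responses to T-independent antigens. It had 34.9, 34.4 and 42.5 CPM in cre B1b cells, against 47.6, 40.7 and 45.4 CPM in wt B1b cells. A single cre library stood above the lowest wt library, so the groups overlapped. The means were 37.3 ± 4.58 CPM in cre and 44.6 ± 3.54 CPM in wt cells (SD, n = 3 each). For TACI the log2 fold change was -0.27 (SE 0.13, 95% interval -0.53 to -0.0042). Its unadjusted p was 0.0467 and its edgeR adjusted p was 0.368, so TACI did not pass the correction.

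Neither of the 2 receptors tested in B1b cells was called by genotype, where 0.707% of 11732 genes were called at an adjusted p under 0.05. The log2 intervals reach down to -0.48 for Tnfrsf13c and -0.53 for Tnfrsf13b, so smaller decreases lie within them. Set per length, Tnfrsf13c stood at 73.3 ± 9.74 CPM per kb in cre and 83.9 ± 15.1 CPM per kb in wt B1b cells (SD, n = 3 each). TACI stood at 49.7 ± 6.11 CPM per kb in cre and 59.4 ± 4.73 CPM per kb in wt cells with its paired transcript of 0.75 kb. That transcript holds coding sequence only, which raises the level per kb. With its longest transcript of 2.556 kb TACI stood at 14.6 ± 1.79 and 17.4 ± 1.39 CPM per kb in cre and wt cells, so the receptors' order held with both lengths while the distance between them did not. Tnfrsf13b overlaps the 3′ neighbour Usp22 by 1390 bases, and the strand setting of the counting is not given in the sources used here, so some of its reads could be those of Usp22.

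BCMA (Tnfrsf17), the third receptor, is typical of plasma cells. It had 0 counts in the 3 cre B1b libraries and 3 in the 3 wt B1b libraries, and 22 counts over the cre aortas and 8 over the wt aortas. It fell under the filter on low counts and was not tested.

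**Figure D1:**
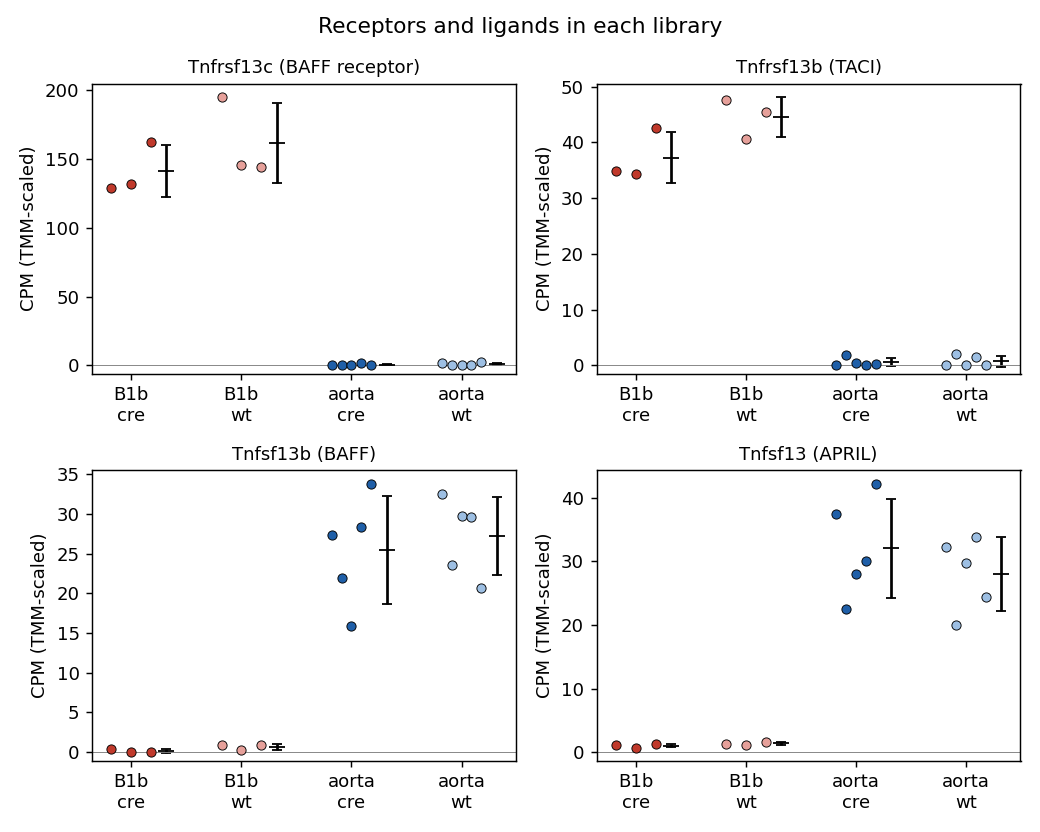
Level of each gene in every library, in TMM-scaled CPM on linear axes that differ between panels; points are libraries, bars are mean ± SD. Both receptors stand high in B1b cells and near 0 in aortas, both ligands the other way round, and cre and wt points overlap for Tnfrsf13c and Tnfrsf13b in B1b cells and for Tnfsf13b and Tnfsf13 in aortas.

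Among ligands in the aorta, BAFF, a B cell survival cytokine released from the cell surface by furin cleavage, did not separate the genotypes. Tnfsf13b had 27.4, 21.9, 15.8, 28.3 and 33.8 CPM in cre aortas, against 32.6, 23.6, 29.7, 29.6 and 20.6 CPM in wt aortas. The cre range enclosed the wt range. The means were 25.4 ± 6.82 CPM in cre and 27.2 ± 4.93 CPM in wt aortas (SD, n = 5 each; log2 fold change -0.10, SE 0.21, 95% interval -0.54 to 0.34, edgeR adjusted p 0.865). The sign turned, to 0.037, without cre aorta replicate 3, the lowest of the 10 aortas.

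APRIL, which is cleaved inside the cell and is held on heparan sulfate proteoglycans, had 37.4, 22.5, 28.1, 30.1 and 42.3 CPM in cre aortas, against 32.3, 20.0, 29.7, 33.9 and 24.3 CPM in wt aortas. Again the groups overlapped, with the highest 2 values in cre and the lowest value in wt. Tnfsf13 averaged 32.1 ± 7.81 CPM in cre and 28.1 ± 5.79 CPM in wt aortas (SD, n = 5 each; log2 fold change 0.20, SE 0.20, 95% interval -0.22 to 0.61, edgeR adjusted p 0.696). Neither of the 2 ligands tested in aortas was called, in a comparison where 2 of 13364 genes, 0.015%, were.

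APRIL reads are not separable from those of its neighbours. The Tnfsf13 gene lies wholly inside Tnfsfm13, the TWE-PRIL readthrough gene that joins TWEAK and APRIL, sharing 2978 bases, and inside the non-coding Tnfsf13os. Tnfsfm13 had 67.3, 52.1, 59.8, 61.6 and 84.0 CPM in cre aortas, against 52.4, 40.2, 58.2, 68.0 and 51.9 CPM in wt aortas (log2 fold change 0.26, SE 0.16, edgeR adjusted p 0.510). Tnfsf12 (TWEAK), the adjoining TNF family ligand, averaged 94.8 ± 15.5 CPM in cre and 81.6 ± 9.04 CPM in wt aortas (SD, n = 5 each; log2 fold change 0.21, edgeR adjusted p 0.537). All 3 genes of the locus had overlapping groups. Tnfsf12, from 69686240 to 69696098 on chromosome 11, also lies wholly inside Tnfsfm13, which spans 69682577 to 69696098. Levels of Tnfsf13, Tnfsfm13 and Tnfsf12 are therefore uncertain as levels of single transcripts.

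**Figure D2:**
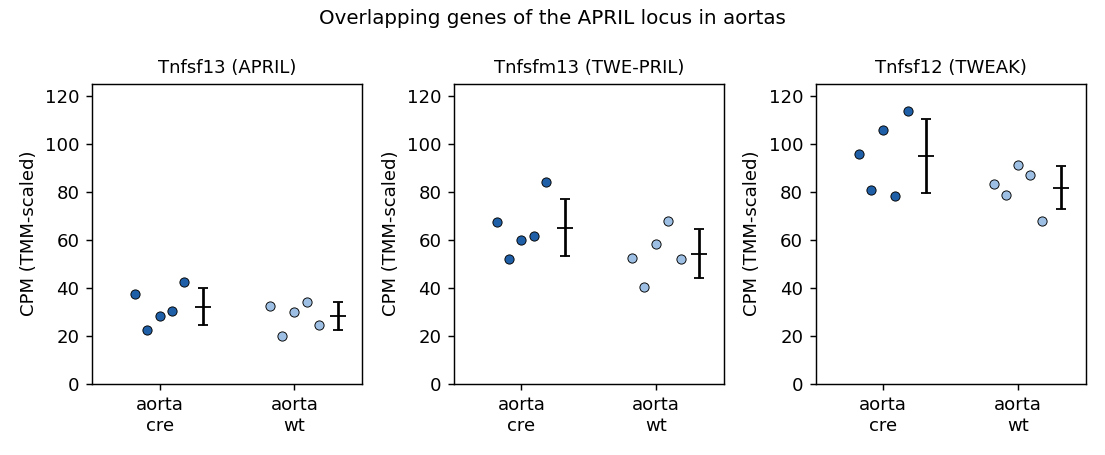
Level of Tnfsf13, Tnfsfm13 and Tnfsf12 in each aorta, in TMM-scaled CPM on 1 shared linear scale; points are libraries and bars are mean ± SD, n = 5 each. Tnfsf12 stands highest and Tnfsf13 lowest, and cre and wt overlap in each panel.

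Heart muscle markers had the largest median difference between the same aortas of all marker lists used. Over Myl7, Myl4, Myh6, Nppa, Sln and Actc1 the summed level was 5183, 2330, 4542, 529 and 4396 CPM in cre aortas, against 1284, 1778, 1692, 390 and 1015 CPM in wt aortas. The sums of 4 cre aortas stood above every wt aorta, and cre replicate 4 stood within the wt range. All 6 were tested and none was called by edgeR, with a median log2 fold change of 3.29 over the list, against 0.0023 over all tested genes. Groups did not overlap for 3 of the 6, as for 2.87% of all tested genes. These were Myl7 (log2 fold change 3.44, SE 0.43, edgeR adjusted p 0.0934), Myl4 (3.24, SE 0.44, edgeR adjusted p 0.0965) and Sln (3.80, SE 0.59, edgeR adjusted p 0.121), chosen after their values were seen. Each of the 3 passed the threshold in DESeq2, in the fit over 16 libraries and without cre replicate 4. In cre replicate 4 BAFF stood at 28.3 CPM and APRIL at 30.1 CPM, both within the wt ranges. BAFF was also within its wt range in cre replicates 1 and 2, at 27.4 and 21.9 CPM. APRIL was so in cre replicates 2 and 3, at 22.5 and 28.1 CPM. BAFF stood outside in cre replicates 3 and 5, at 15.8 and 33.8 CPM, and APRIL in 1 and 5, at 37.4 and 42.3 CPM. The part of heart tissue in the aorta values of the ligands and of the pathway genes was not tested.

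Per length, APRIL stood above BAFF in the aorta. Tnfsf13 stood at 22.8 ± 5.55 CPM per kb in cre and 19.9 ± 4.11 CPM per kb in wt aortas, and Tnfsf13b at 5.33 ± 1.43 CPM per kb in cre and 5.71 ± 1.03 CPM per kb in wt aortas (SD, n = 5 each). These lengths are 1.407 kb for Tnfsf13 and 4.771 kb for Tnfsf13b, and shared reads of the APRIL locus enter the first. The distance rests largely on these lengths, and no other length was tried for Tnfsf13b. Before division by length, Tnfsf13 and Tnfsf13b averaged 32.1 and 25.4 CPM in cre and 28.1 and 27.2 CPM in wt aortas. In the same unit TWEAK stood at 66.1 ± 10.8 in cre and 56.9 ± 6.30 in wt aortas, a level that reads shared with Tnfsfm13 can also enter.

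The ligands were close to the counting floor in B1b cells. Tnfsf13b had 3, 0 and 0 counts in the cre B1b libraries, against 7, 2 and 8 counts in the wt B1b libraries. The lowest wt library, at 0.256 CPM, stood below the highest cre library, at 0.372 CPM, so the groups overlapped. The ratio of summed counts per library size, cre over wt, was 0.172, with a 95% interval of 0.0323 to 0.594 that covers counting error only and not the spread between libraries. A fit without the filter on low counts, which does carry that spread, gave a log2 fold change of -2.35 (SE 1.57) and an edgeR adjusted p of 0.600. Tnfsf13 had 9, 5 and 12 counts in cre and 10, 9 and 15 counts in wt B1b cells, a ratio of 0.745 (0.429 to 1.28, counting error only). Its edgeR adjusted p without the filter was 0.883.

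Receptor counts in aortas were equally sparse. Tnfrsf13c had 0, 1, 2, 11 and 2 counts in cre aortas, against 6, 2, 3, 3 and 4 counts in wt aortas. Tnfrsf13b had 0, 3, 2, 1 and 2 counts in cre aortas, against 0, 9, 1, 10 and 0 counts in wt aortas. Both groups overlapped for both genes. Summed over libraries, the ratio of cre to wt was 0.899 (0.429 to 1.87) for Tnfrsf13c and 0.404 (0.154 to 0.958) for Tnfrsf13b, with intervals for counting error only. The fit without the filter gave edgeR adjusted p-values of 0.817 for Tnfrsf13c and 0.780 for Tnfrsf13b. In whole aortas fewer cells of a type and less RNA per cell cannot be told apart.

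Apart from Ebf1 and Cd72, each B cell marker averaged at most 31.4 CPM in either aorta group. Cd79a, part of the B cell receptor, had 3.91, 29.0, 2.88, 1.78 and 2.20 CPM in cre aortas, against 4.55, 4.22, 2.69, 1.57 and 4.23 CPM in wt aortas. The cre library with 29.0 CPM was replicate 2, the shallowest, which also had the highest TACI level of the cre aortas, 1.78 CPM from 3 counts. For the BAFF receptor that library had 1 count, and the cre aorta with its 11 counts, replicate 4, had the lowest Cd79a of the cre aortas, 1.78 CPM. Among wt aortas, most TACI counts were in replicate 4, with 10 counts, and replicate 2, with 9. Cd79a stood at 1.57 CPM in wt replicate 4, the lowest of the wt aortas, and at 4.22 CPM in wt replicate 2. Of the 9 B cell markers, 7 were tested in aortas and 9 in B1b cells, and none was called by genotype in either tissue at an edgeR adjusted p under 0.05, with median log2 fold changes of 0.14 in aortas and -0.08 in B1b cells. The part of B cell content in the aorta receptor counts was not tested.

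**Figure D3:**
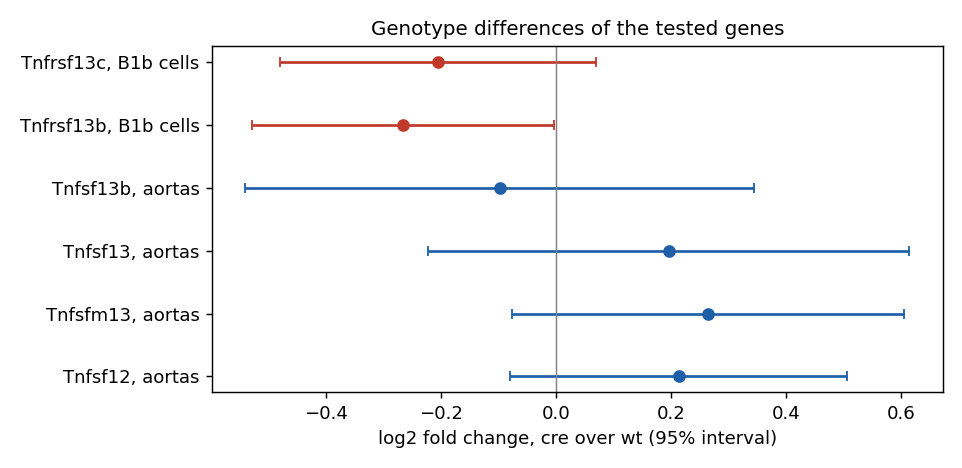
Log2 fold change, cre over wt, of the receptors in B1b cells and of the ligands and neighbouring genes in aortas; points are edgeR estimates and lines are 95% intervals. The Tnfrsf13b interval ends at -0.0042 before correction, and each other interval spans 0.

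Set between the tissues, receptors were higher and ligands lower in B1b cells than in aortas in both genotypes. In no member did B1b and aorta libraries overlap, in either genotype, as for 68.8% of all genes in cre and 70.2% in wt mice. Each member passed the filter on low counts through the tissue in which it was high, so the calls are no separate support for these differences. In cre mice, the log2 ratio of B1b cells to aortas was 7.71 for Tnfrsf13c (SE 0.49, edgeR adjusted p 6.99e-13) and 6.68 for Tnfrsf13b (SE 0.78, edgeR adjusted p 6.25e-09). In wt mice these were 7.71 (SE 0.46, edgeR adjusted p 5.41e-13), a 209-fold difference, for Tnfrsf13c and 5.76 (SE 0.58, edgeR adjusted p 8.13e-09), a 54.2-fold difference, for Tnfrsf13b. Without the filter the log2 ratios of Tnfrsf13c and Tnfrsf13b were 7.69 and 6.65 in cre mice and 7.67 and 5.73 in wt mice. For comparison, 32.8% of 15091 genes were called higher in B1b cells in cre mice and 33.4% in wt mice, and 75.1% in cre and 72.1% in wt mice in either direction, so calls of this kind were common.

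Tnfsf13 was 30.4-fold lower in B1b cells than in aortas in cre mice (log2 fold change -4.93, SE 0.31, edgeR adjusted p 3.94e-11) and 19.8-fold lower in wt mice (log2 fold change -4.30, SE 0.29, edgeR adjusted p 1.58e-10). For Tnfsf13b the same log2 ratio was -5.24 in wt mice (SE 0.46, edgeR adjusted p 3.21e-09). In cre mice the fitted Tnfsf13b value of -7.49 (SE 0.90, edgeR adjusted p 5.04e-10) rested on 3 counts, all in replicate 1, and was -10.25 without it. The ratio of summed counts per library size, aorta over B1b cells, was 225 in cre mice (95% interval 76.5 to 1092) and 40.5 in wt mice (25.1 to 70.0), with intervals for counting error only. Among all genes, 42.3% were called lower in B1b cells in cre mice and 38.7% in wt mice. B1b libraries came from sorted cells and aorta libraries from whole frozen tissue, so cell type and handling cannot be told apart here.

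The cre against wt effect was also compared between the tissues, as the B1b effect minus the aorta effect. It was -2.25 on the log2 scale for Tnfsf13b (SE 1.01, 95% interval -4.37 to -0.12, unadjusted p 0.0149, edgeR adjusted p 0.344) and ranged from -4.97 to -1.55 as single libraries were left out. For Tnfsf13 it was -0.62 (SE 0.42, edgeR adjusted p 0.607), for Tnfrsf13b 0.91 (SE 0.97, edgeR adjusted p 0.745) and for Tnfrsf13c 0.00 (SE 0.67, edgeR adjusted p 1.0). None of the 4 members was called there by edgeR, where 0.0199% of 15091 genes were and 1678 genes had an unadjusted p under 0.05. In the tissue where it was low, each member gave 0 to 15 counts a library.

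Downstream of the receptors, the adaptors and the non-canonical NF-kB genes held 1 call in B1b cells. Of 14 listed genes 12 were tested, 0 rose and 1 fell, with a median log2 fold change of -0.05 against -0.0049 over all tested genes. Traf5, an adaptor recruited to CD40 and other TNF receptors, had 56.9, 51.8 and 52.4 CPM in cre B1b cells, against 82.9, 63.4 and 76.7 CPM in wt B1b cells. The groups did not overlap, as 17.4% of all tested genes did not, and Traf5 fell (log2 fold change -0.48, SE 0.11, edgeR adjusted p 0.0468). That call was lost in 7 of 12 alternatives, among them limma-voom, a fit over all 16 libraries and 5 of 6 fits with a single B1b library left out, with adjusted p from 0.0035 to 0.757 over all 12. Myd88, an adaptor that TACI can bind, had a log2 difference of -0.18 (edgeR adjusted p 0.558) and Traf2, which acts with TRAF3 to degrade NIK, one of -0.19 (edgeR adjusted p 0.581).

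Genes known to respond to BAFF or APRIL in B cells gave no call in B1b cells, with 10 of 11 tested and a median log2 fold change of -0.01. Pim2, a survival kinase that BAFF induces, had 64.2, 46.8 and 82.6 CPM in cre B1b cells, against 42.5, 35.8 and 40.4 CPM in wt B1b cells (log2 fold change 0.70, SE 0.16, edgeR adjusted p 0.0568). Fcer2a (CD23), low on B1 cells and high on follicular B cells, had 57.5, 41.8 and 50.4 CPM in cre cells, against 99.3, 65.1 and 119 CPM in wt cells (log2 fold change -0.93, SE 0.22, edgeR adjusted p 0.129). Both genes had groups that did not overlap, as 17.4% of all tested genes did, and both passed the threshold in some alternatives, 4 of 12 for Pim2 and 3 of 12 for Fcer2a, including DESeq2 and edgeR without the filter. Nfkbie, an NF-kB inhibitor, had a log2 difference of -0.32 (edgeR adjusted p 0.152). The part of follicular B cells in the Fcer2a values was not tested.

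Partners of the ligands gave no call in B1b cells, with 8 of 10 tested and a median log2 fold change of 0.16. Adam10, a protease that sheds TACI in human cells, had 306, 303 and 301 CPM in cre cells, against 232, 255 and 274 CPM in wt cells (log2 fold change 0.25, SE 0.08, edgeR adjusted p 0.145). Sdc3, a heparan sulfate proteoglycan, had a log2 difference of 0.42 (edgeR adjusted p 0.169) and Tnfsf12 one of 1.32 at 0.654 to 3.95 CPM (edgeR adjusted p 0.393). Other TNF receptors of B cells, 8 of 10 tested with a median of -0.15, also gave none. Tnfrsf1a, the TNF receptor that most cell types express, had 8.81, 5.49 and 4.49 CPM in cre cells, against 1.70, 3.07 and 1.64 CPM in wt cells (log2 fold change 1.54, SE 0.42, edgeR adjusted p 0.099), and passed the threshold in DESeq2 and without the filter. Tnfrsf1b, the second TNF receptor, had a log2 difference of -0.27 (edgeR adjusted p 0.212) and Cd27, a marker of memory B cells in humans, one of -0.79 (edgeR adjusted p 0.372). Groups of Adam10, Sdc3, Tnfsf12, Tnfrsf1a, Tnfrsf1b and Cd27 did not overlap, as 17.4% of all tested genes did not. These genes were picked for their small p.

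The summed level of 12 macrophage markers was 523 to 541 CPM in cre B1b cells and 279 to 441 CPM in wt B1b cells. These sums did not overlap. Of all tested genes taken singly, 17.4% did not overlap, and no such share was computed for sums of genes. None of the 12 was at 0 in every library of a group. Most of the sum was Lyz2, at 191 to 233 CPM in cre and 55.6 to 142 CPM in wt cells, and Itgam, an integrin that peritoneal B1 cells also carry, at 183 to 207 CPM in cre and 152 to 191 CPM in wt cells. Mrc1, at 35.1 to 53.0 CPM in cre and 15.7 to 32.3 CPM in wt cells, was also higher in cre with no overlap. So was C1qa, at 4.93 to 9.93 CPM in cre and 0.916 to 4.22 CPM in wt cells. Cd68, Cd14, C1qb, C1qc and Mertk had overlapping groups with a higher cre mean. Adgre1 and Fcgr1 had overlapping groups with a lower cre mean. Adgre1 was at 11.4 to 19.7 CPM in cre and 17.4 to 18.8 CPM in wt cells, and Fcgr1 at 0 to 0.714 CPM in cre and 0 to 1.05 CPM in wt cells. Of 11 tested, 1 rose, the macrophage growth factor receptor Csf1r, at 16.9 ± 1.88 CPM in cre and 8.40 ± 1.78 CPM in wt B1b cells (SD, n = 3 each; log2 fold change 0.99, SE 0.21, edgeR adjusted p 0.0357), a call lost in 6 of 12 alternatives with adjusted p up to 0.334. Plasma cell markers gave 1 call of 7 tested, Jchain, the joining chain of secreted IgM, which had 12.9, 15.8 and 18.2 CPM in cre and 4.71, 2.17 and 6.56 CPM in wt B1b cells. It rose (log2 fold change 1.78, SE 0.30, edgeR adjusted p 0.0068), and the call was lost only in the fit over 16 libraries, with an adjusted p of 0.983. The summed level of the 7 plasma cell markers overlapped, at 750 to 922 CPM in cre and 777 to 891 CPM in wt B1b cells. Besides Jchain, Mzb1, Sdc1, Prdm1 and Slamf7 had a higher cre mean and Irf4 and Xbp1 a lower one, each with overlapping groups. Csf1r and Jchain were chosen after their values were seen. Neutrophil markers summed to at most 2.22 CPM and T cell markers to at most 23.7 CPM in any B1b library, which left no neutrophil marker to test. The markers of other cells tested in B1b cells were 5 of 7 for dendritic cells, 2 of 7 for T cells, 3 of 6 for smooth muscle, 1 of 6 for endothelium, 2 of 6 for fibroblasts and 1 of 6 for adipocytes, and none of those tested was called. In aortas none of the plasma cell, macrophage, dendritic cell, neutrophil, T cell, smooth muscle, endothelial, fibroblast, adipocyte or heart muscle markers that were tested was called. The part of these other cells in the values of Tnfrsf1a, Sdc3 and Tnfsf12 was not tested.

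In aortas none of the pathway genes was called. Ligand partners had 10 of 10 tested and a median log2 fold change of -0.15, adaptors and non-canonical NF-kB genes 12 of 14 and -0.19, BAFF and APRIL responsive genes 7 of 11 and -0.08, and other TNF receptors 9 of 10 and 0.11, against 0.0023 over all tested genes. The responsive genes were listed for B cells, but these values are of whole aortas. Tnfrsf13c gave only 0 to 11 counts a library in cre and 2 to 6 in wt aortas. The part of B cells in the aorta values of the responsive genes was not tested. Bcl2, the survival factor, had 53.3, 47.4, 52.6, 63.6 and 53.6 CPM in cre aortas, against 84.0, 69.1, 74.3, 64.0 and 88.9 CPM in wt aortas (log2 fold change -0.48, SE 0.13, edgeR adjusted p 0.203). Traf3, the inhibitory adaptor of NIK, had 41.6, 46.2, 37.0, 39.8 and 47.4 CPM in cre aortas, against 51.5, 50.2, 48.7, 59.2 and 64.6 CPM in wt aortas (log2 fold change -0.37, SE 0.13, edgeR adjusted p 0.310). Groups did not overlap for these 2 genes, as for 2.87% of all tested genes, but neither passed the correction. The ubiquitin ligases Birc2 and Birc3 had log2 fold changes of -0.49 and -0.48 (edgeR adjusted p 0.280 and 0.426), and the proteases Adam17 and Adam10 of -0.35 and -0.30 (edgeR adjusted p 0.353 and 0.457). For Sdc1, Bcl2l1, Pim2, Tnfrsf21 and Tnfrsf14 the log2 fold changes were -0.36, -0.12, 0.23, 0.37 and 0.43, with edgeR adjusted p from 0.517 to 0.862.

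**Figure D4:**
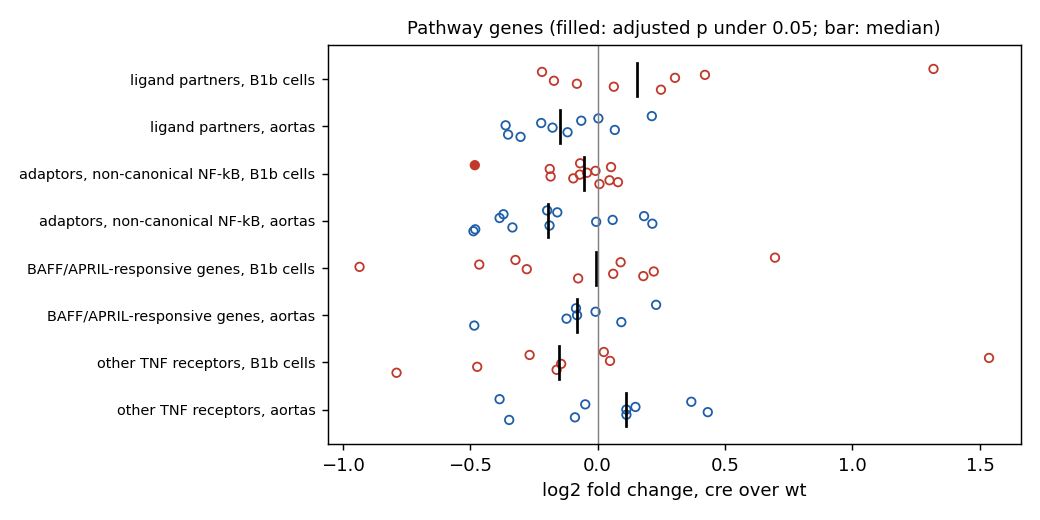
Log2 fold change, cre over wt, of each tested pathway gene by list and tissue; open points missed an edgeR adjusted p of 0.05, the filled point passed it, and black bars are list medians. Traf5 in B1b cells is the single filled point.

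Across the 10 aortas, the 3 genes with the highest Pearson correlation with Tnfsf13b among 12148 compared were Cd180, a receptor of the Toll-like family on B cells and macrophages (r 0.971, Spearman rho 0.976), Ms4a6c (r 0.950, rho 0.964) and Rab32, a small GTPase (r 0.930, rho 0.964). For Tnfsf13 they were Rftn1, a membrane raft protein (r 0.937, rho 0.939), Ormdl1, a regulator of sphingolipid synthesis (r 0.925, rho 0.964), and Tnfsfm13 (r 0.907, rho 0.891), which shares reads with it. These are descriptions over 10 libraries of both genotypes that also share depth and cell makeup. The summed level of the 12 macrophage markers was 5942, 4337, 3996, 4351 and 7127 CPM in cre aortas, against 4193, 3958, 5581, 6363 and 2764 CPM in wt aortas. The same libraries were lowest in BAFF within each genotype, cre replicate 3 and wt replicate 5, and cre replicate 5 was highest in both among cre aortas, while the highest wt aorta was replicate 1 for BAFF and replicate 4 for the markers. The part of macrophage content in BAFF levels was not tested.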

How the data were processed

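mRNA-seq libraries (KAPA mRNA Hyperprep, per the labels' protocols) were analysed from 6 B1b and 10 aorta samples. The deposited values are whole-number counts per RefSeq transcript, and per the submitters' processing notes the tools were CASAVA 1.8.2 and STAR 2.5.2b with build mm10; the counting program, its annotation and its strand setting are not stated in those notes or in the labels. Of 35745 transcript rows, 35440 were named by RefSeq (GRCm38.p6) and 188 by GENCODE, and 117 stayed unnamed, with 0.240 to 2.50% of counts; the row with the highest total was kept per gene.

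Each comparison was fitted with edgeR 4.0.16 in R 4.3.3 (TMM, filterByExpr by group with a minimum count of 10, robust quasi-likelihood), with Benjamini-Hochberg adjustment over all tested genes and a threshold of 0.05. Genotypes were compared within each tissue over that tissue's libraries, and tissues and the difference of effects in 1 fit over 16 libraries. DESeq2 1.42.0, limma-voom (limma 3.58.1), other filters and rows, left-out libraries and a fit over all libraries were alternatives, and the scripts were tested on simulated data. Intervals for low counts are exact, at 95%, and cover counting error only.

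Members and gene lists were chosen with earlier results of these data known. Named genes were the members, Cd40 and, per pathway list, every called gene and the 3 of smallest p in each genotype comparison; Csf1r, Jchain, Myl7, Myl4 and Sln were added after their values were seen. Likeness to a member was the Pearson correlation of log2 CPM over 10 aortas among tested genes averaging 5 CPM or more; it is not given for receptors, which were not tested in aortas, nor over 16 libraries, which split by tissue. Marker lists covered B cells, plasma cells, macrophages, dendritic cells, neutrophils, T cells, smooth muscle, endothelium, fibroblasts, adipocytes and heart muscle. Camlg had no row. Some results are not reported here.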

Additional observations from a re-analysis of the deposited data

Results flagged for a closer look

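Tnfrsf13b stood at 1.78 CPM in cre aorta replicate 2, apart from the other 4 cre aortas at 0 to 0.480 CPM, with a gap of 0.73 of the range. The value is 3 counts in the shallowest library, of 1645926 counts. Sdc3 stood at 652 CPM in cre aorta replicate 5, above the other cre aortas, with a gap of 0.752 of the range. Jchain stood at 18.5 CPM in wt aorta replicate 5, above the other wt aortas, with a gap of 0.783 of the range. Chance sets apart a sample in about 1 in 20 groups, and 64 groups were tested, of which these were 3.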

How the results depend on the processing

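No paired analysis was possible because the replicate numbers only name libraries in their listed order and tie no cre library to a wt library.

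Counts of called genes moved with the tool. In B1b cells, 83 genes were called by edgeR, against 197 by DESeq2, 327 without the filter, 0 in 1 fit over 16 libraries (where B1b and aorta libraries share a spread estimate) and 35 to 103 with a library left out. In aortas, 2 were called, against 204 by DESeq2, 1 by limma-voom, 1 with the row of lowest count, 92 without the aortas under 2000000 counts, 47 in 1 fit over 16 libraries and 0 to 14 with a library left out. For the difference of effects, 3 were called, against 173 by DESeq2, 17 without the shallow aortas and 1 to 7 with a library left out. The cause was not tested.

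Of the members, aorta Tnfsf13b ranged from -0.22 to 0.037 (log2) with a library left out and turned sign without cre replicate 3. The Tnfrsf13c difference of effects, near 0, ranged from -0.29 to 1.05 and was -0.21 without the shallow aortas. Pim2 in aortas turned to -0.13 in limma-voom and -0.37 without the shallow aortas, and ranged from -0.26 to 0.47 with a library left out. No receptor in B1b cells and no ligand in aortas passed the threshold in any of the 12 B1b or 17 aorta alternatives. All 4 tissue differences kept their direction and call in the 15 alternatives of each genotype, though Tnfrsf13c in cre mice was 8.76 without cre aorta replicate 4, Tnfrsf13b in cre mice 7.26 without cre aorta replicate 2 and in wt mice 6.34 without wt aorta replicate 2. Each member passed the filter through the tissue where it was high, and 75.1% of genes in cre and 72.1% in wt mice were called. The repeated calls are therefore no separate support for these differences. Depth limits the ligands in B1b cells and the receptors in aortas, at 0 to 15 counts a library.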
